A study of Mus musculus with 4 samples.

Results

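Of 9 genes that govern cellular sterol content through LXR and SREBP, 5 lay nearest to at least 1 region bound by PPARγ in mouse alveolar macrophages (AMs), with 15 regions in all. They were Nr1h3, Srebf1, Srebf2, Insig1 and Mylip. Nr1h2, Scap, Insig2 and Cyp27a1 were nearest to none. Each of the 5 had a region centred within 1 kb of one of its own transcription start sites (TSSs). Mylip carried 7 of the 15 regions, including the strongest. The genes were taken from a list, whatever their values. Peaks of both libraries that overlapped by at least 1 bp were merged, regions holding peaks of both libraries (consensus regions) were kept, and the centre of each decided its gene, namely the protein-coding one whose curated RefSeq TSS was nearest. The series gave 20233 consensus regions, and 6617 of 20923 protein-coding genes (31.6%) were nearest to at least 1, against 5 of the 9.

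The assay was HT-ChIPmentation, a form of ChIP-seq for low cell numbers in which a transposase adds the sequencing adapters to bead-bound chromatin. WT mice of the C57BL/6J strain, aged 9 wk, gave the AMs, which were collected by bronchoalveolar lavage and sorted in aliquots of 200000 cells. The series has 2 ChIP libraries made with a Diagenode PPARγ antibody, called library 1 and library 2 here, and 2 inputs, which served the authors as controls and were not analysed here. All libraries are WT and untreated as far as the labels say, no PPARγ-deficient sample was used, and no source states whether the libraries came from separate mice. Library 1 held 83787 peaks and library 2 held 28535. The lists carry no read counts, so the depth behind each peak cannot be read from them.

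LXRα (Nr1h3) and LXRβ (Nr1h2) are nuclear receptors that bind oxysterols and, as partners of RXR, raise the expression of genes for cholesterol efflux and fatty acid synthesis. SREBPs are membrane-bound transcription factors for lipid synthesis and sterol uptake: SCAP escorts them from the endoplasmic reticulum when sterols are low, and the INSIG proteins hold SCAP there when sterols are high. AMs take up and break down surfactant, a fluid rich in phospholipid and cholesterol, and PPARγ is a nuclear receptor on which their differentiation depends. PPARγ also pairs with RXR and binds DR1 elements, which are 2 AGGTCA half-sites 1 base apart, whereas LXR with RXR binds DR4 elements, in which the half-sites lie 4 bases apart.

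The sequences below are shown because they lie under the best-ranked region of each bound gene. They run 100 bp to each side of the summit in the library with the higher percentile of fold enrichment, on the plus strand of mm10. Capitals mark every match to one of the 11 short patterns searched, which are spelled out with the motif counts.
Nr1h3, upstream (chr2:91195884-91196084): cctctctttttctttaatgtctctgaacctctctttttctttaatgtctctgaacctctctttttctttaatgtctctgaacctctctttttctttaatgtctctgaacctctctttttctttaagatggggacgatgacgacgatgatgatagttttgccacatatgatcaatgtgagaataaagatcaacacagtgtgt
Srebf1, intron 1 (chr11:60209917-60210117): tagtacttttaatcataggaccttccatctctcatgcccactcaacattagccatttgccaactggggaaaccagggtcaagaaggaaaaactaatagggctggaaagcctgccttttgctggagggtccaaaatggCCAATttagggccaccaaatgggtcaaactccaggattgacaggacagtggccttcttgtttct
Srebf2, promoter (chr15:82146989-82147189): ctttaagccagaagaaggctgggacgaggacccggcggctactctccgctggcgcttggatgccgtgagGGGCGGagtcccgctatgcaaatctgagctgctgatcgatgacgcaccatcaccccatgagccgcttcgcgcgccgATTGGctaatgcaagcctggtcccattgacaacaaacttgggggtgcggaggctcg
Insig1, intron 1 (chr5:28071845-28072045): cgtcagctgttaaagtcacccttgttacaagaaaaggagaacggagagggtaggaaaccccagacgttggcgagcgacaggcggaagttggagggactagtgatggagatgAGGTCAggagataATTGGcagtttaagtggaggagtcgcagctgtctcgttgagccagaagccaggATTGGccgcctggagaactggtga
Mylip, intron 2 (chr13:45391565-45391765): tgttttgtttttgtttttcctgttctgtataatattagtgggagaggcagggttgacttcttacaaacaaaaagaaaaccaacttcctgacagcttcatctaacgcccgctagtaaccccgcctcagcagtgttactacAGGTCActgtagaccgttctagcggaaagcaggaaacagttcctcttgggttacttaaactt
Another pair of windows is shown for the patterns it holds. The Insig1 promoter window has an AGGTCA half-site that runs into an E-box, and the window downstream of Mylip has the one DR1 found at these genes.
Insig1, promoter (chr5:28071174-28071374): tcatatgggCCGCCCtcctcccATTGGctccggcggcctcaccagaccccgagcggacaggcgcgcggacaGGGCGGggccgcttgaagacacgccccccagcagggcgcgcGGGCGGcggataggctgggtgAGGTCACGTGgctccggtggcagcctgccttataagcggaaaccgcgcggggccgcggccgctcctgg
Mylip, downstream (chr13:45442638-45442838): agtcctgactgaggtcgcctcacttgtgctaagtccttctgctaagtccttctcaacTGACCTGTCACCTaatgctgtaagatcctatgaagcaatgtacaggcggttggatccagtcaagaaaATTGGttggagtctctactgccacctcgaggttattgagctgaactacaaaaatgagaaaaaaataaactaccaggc

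Nr1h3, which encodes LXRα, had 2 regions in a short stretch upstream of its TSS. Nr1h3 lies on the minus strand of chromosome 2 (91184061 to 91195116 in mm10). The first region, chr2:91195494-91196212, was centred at -0.737 kb from the TSS, where negative distances are upstream. Its fold enrichment, a ratio of ChIP to input taken by the authors at the peak summit, was 4.80 in library 1 and 6.19 in library 2. The second, chr2:91196531-91197259, was centred at -1.78 kb, with 4.74 in library 1 and 5.35 in library 2. Both regions were thus of like height in both libraries, and in the first the library 2 peak stood higher among the peaks of its own library (74.5th percentile) than the library 1 peak did (62.5th percentile). That was the only 1 of the 15 member regions with this order, since the percentile was higher in library 1 at the other 14. Over all consensus regions, library 1 had the higher percentile in 80.9%. The summits of the first region lay 31 bp apart, in a repeat with a period of 27 bases that is visible in the printed sequence. In that window 68.4% of bases equalled the base 27 positions further on, and 76.6% of bases were soft-masked as repeats in the genome, against 6.55% of all regions with more than 50% of their window masked. The part of the repeat in the enrichment was not tested.

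Around the Nr1h3 TSS itself the libraries differed. Library 1 alone had peaks at -0.191, 0.136 and 0.536 kb, with folds of 5.04, 4.44 and 6.22. Library 2 had none of these and 1 peak of its own in intron 4, at 3.96 kb with a fold of 3.68. Neighbouring genes held further regions within 50 kb. One beside the TSS of Madd lay 11.7 kb downstream of the Nr1h3 TSS (folds 8.0 and 4.52). Acp2, which encodes lysosomal acid phosphatase, was nearest to 2, at -7.79 and -11.3 kb from the Nr1h3 TSS, and the first of these sat on the Acp2 TSS with folds of 7.41 and 6.47.

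Nr1h2, the gene of LXRβ, had no consensus region. It lies on the minus strand of chromosome 7 (44549616 to 44553965). Its territory, the stretch nearer to its TSS than to those of other genes, was 11.8 kb, at the 9.29th percentile of all genes. Library 1 placed a single peak over its TSS, chr7:44553811-44554471, with a fold of 7.11, a −log10 q of 12.7 and the 86.5th percentile of that library. Library 2 had no peak there. Of the 3852 library 1 peaks within 2.5 percentile points of it, 60.7% were shared by library 2. The Nr1h2 promoter peak was the strongest of the 33 library 1 peaks at the 9 genes that library 2 did not share. The nearest consensus region lay 18.4 kb away, at the TSS of Napsa, the gene of the aspartic protease napsin A (folds 4.44 and 4.52).

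Cyp27a1 encodes sterol 27-hydroxylase, which makes the oxysterol 27-hydroxycholesterol in mitochondria, and lies on the plus strand of chromosome 1 (74713535 to 74737897). It had no region and no peak within 10 kb of its TSS in either library. Its only peaks were 2 weak ones of library 1, at -10.9 and -18.2 kb, with folds of 3.26 and 4.15. The nearest consensus region was 274 kb away and was assigned to Vil1, so Cyp27a1 stood farthest of the 9 from a shared peak.

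The SREBP genes differed in strength. Srebf2, whose product drives cholesterol synthesis and sterol uptake, had a region over its TSS (chr15:82146688-82147286, centred at -0.282 kb), with a fold of 8.59 in library 1 and 4.79 in library 2. Of the peaks merged there, only that of library 2 reached the TSS, while the library 1 peak ended upstream at 82147163. The second Srebf2 region, chr15:82148374-82148811, lay in intron 1 at 1.32 kb, with 4.74 and 4.52. The promoter region was high in library 1 (91.8th percentile) and below the middle of library 2 (40.8th percentile). Srebf2 also hosts Mir33, a microRNA directed at the cholesterol exporter ABCA1, in intron 16, 50.9 kb from the TSS (chr15:82198122-82198190). No peak lay near it: the nearest consensus region was 49.3 kb away and the nearest library 1 peak 32.6 kb away.

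Srebf1, whose product drives fatty acid synthesis and whose transcription LXR raises, had 1 region, and it was weak. The region, chr11:60209522-60210083, lay in intron 1 at 0.668 kb from the most downstream of 3 curated TSSs. The fold was 4.15 in library 1 and 4.29 in library 2, which ranked the region 15323 of 20233 by the lower of its percentiles. The summits lay 423 bp apart, so the libraries shared the stretch but not the position of the maximum. Library 1 alone also had a peak over the middle TSS (chr11:60220459-60220726) with a fold of 4.15 and another at -0.196 kb from the most downstream TSS with 3.85.

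**Figure D1:**
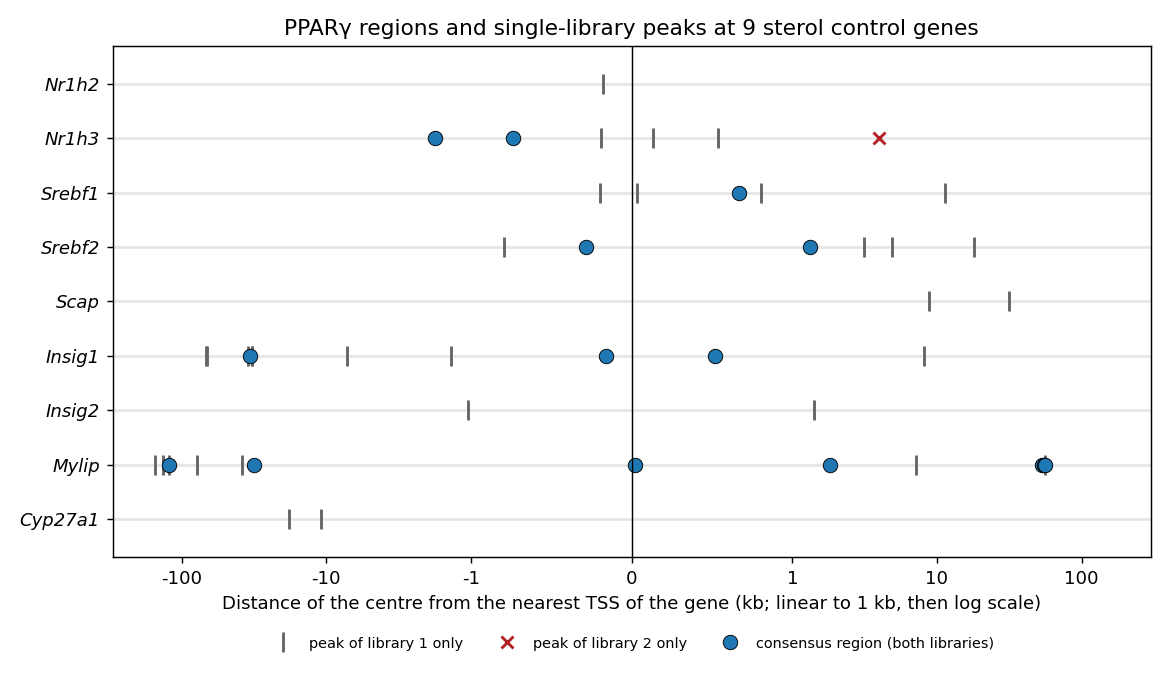
PPARγ peaks at the 9 genes, by distance of the centre from the gene's nearest TSS (kb; linear to 1 kb and on a log scale beyond, upstream to the left). Filled circles are the 15 consensus regions, bars are peaks of library 1 only and the cross is the single peak of library 2 only. Circles flank the TSS of Srebf2 and Insig1, and the rows of Nr1h2, Scap, Insig2 and Cyp27a1 hold library 1 peaks only.

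Of the genes that hold or escort SREBP, Insig1 had 3 regions, while Insig2 and Scap had none. Insig1 is an SREBP target, so its product returns when SREBP is active, and it lies on the plus strand of chromosome 5 (28071412 to 28078662). A region over its TSS, chr5:28071010-28071497 at -0.158 kb, had folds of 8.0 and 5.07. Its library 1 peak spanned the TSS, while the library 2 peak ended upstream at 28071346. A second region in intron 1, chr5:28071646-28072222 at 0.522 kb, had 12.1 and 5.21, the highest library 1 fold at the 9 genes. Its summit fell on the same base in both libraries. The gap between the 2 regions was 148 bp. The third, chr5:28037051-28038234, lay at -33.8 kb, with 11.8 in library 1 and only 4.43 in library 2. It was at the 97.0th percentile of library 1 and at the 26.0th of library 2, the widest difference of the 15. The summits lay 396 bp apart. All 3 overlap the lncRNA gene Gm35223 as well.

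Insig2, the paralogue of Insig1, lies on the minus strand of chromosome 1 (121304353 to 121332589) in a wide territory. The stretch of chromosome 1 nearer to its TSSs than to those of other genes measures 417 kb, against a median of 48.8 kb for all genes, and it held no region. Library 1 had 2 weak peaks in Insig2 intron 1, with folds of 3.14 and 3.36, at percentiles 9.52 and 15.6. The nearest region was 98.2 kb away and was assigned to Ccdc93. Scap, on the plus strand of chromosome 9 (110333288 to 110384949), had 2 library 1 peaks, in introns 1 and 3, with folds of 3.85 and 4.15, and its nearest region was 126 kb away and was assigned to Klhl18. Peaks of those folds are seldom shared: 7.82% and 9.02% of library 1 peaks of like fold overlapped a library 2 peak.

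Mylip encodes IDOL, an E3 ubiquitin ligase that LXR induces and that sends lipoprotein receptors such as VLDLR and ApoER2 (Lrp8) to the lysosome. It lies on the plus strand of chromosome 13 (45389742 to 45411940). It had 7 regions, a number reached by 3.32% of all genes and by 1 of the 9. This number moved with the rule: it was 3 where both libraries had to reach a fold of 5, 2 where peaks had to overlap reciprocally by 50%, 4 with summits at most 100 bp apart, 3 within 50 kb of the TSS and 2 by overlap with the gene span. Taking each library by itself, library 1 had 15 peaks at Mylip and library 2 had 9, shared ones included. Per 100 kb of territory, Mylip had 2.77 consensus regions, against 0.768 over all genes. Insig1 had 1.85, Srebf2 4.71 and Nr1h3, whose territory is only 9.97 kb, 20.1. Srebf1, with 0.889, was near the value over all genes, and Nr1h2, Scap, Insig2 and Cyp27a1 had 0. The strongest region, chr13:45390468-45392674, lay in intron 2 at 1.83 kb and was 2207 bp wide. Its fold was 11.6 in library 1 and 9.26 in library 2, at the 96.7th and 94.3rd percentile, and it ranked 1235 of 20233. It was thus high in both libraries, and no other member region was above the 90th percentile in both. The promoter region, chr13:45389525-45389994, was centred 0.018 kb into the first exon, in the 5′ UTR, with 7.70 and 4.79.

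The other 5 Mylip regions were distal. The farthest, chr13:45265725-45267025, lay at -123 kb in the lncRNA gene Gm34466 and held 2 peaks of each library. Its folds were 8.0 and 6.75 and its rank, 4179, was second among the 15. The summits of its strongest peaks lay 737 bp apart, the widest such distance of the 15. A region at -31.4 kb had 5.63 and 4.79. Downstream of the gene, 3 regions lay within a few kb of each other. Their folds in library 1 and library 2 were 7.41 and 5.17 at 52.9 kb, 4.44 and 4.19 at 55.1 kb, and 5.33 and 4.52 at 55.9 kb. The region at 55.1 kb ranked lowest of all 15, at 16822. Distal regions were assigned by distance alone, and whether they act on Mylip was not tested.

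**Figure D2:**
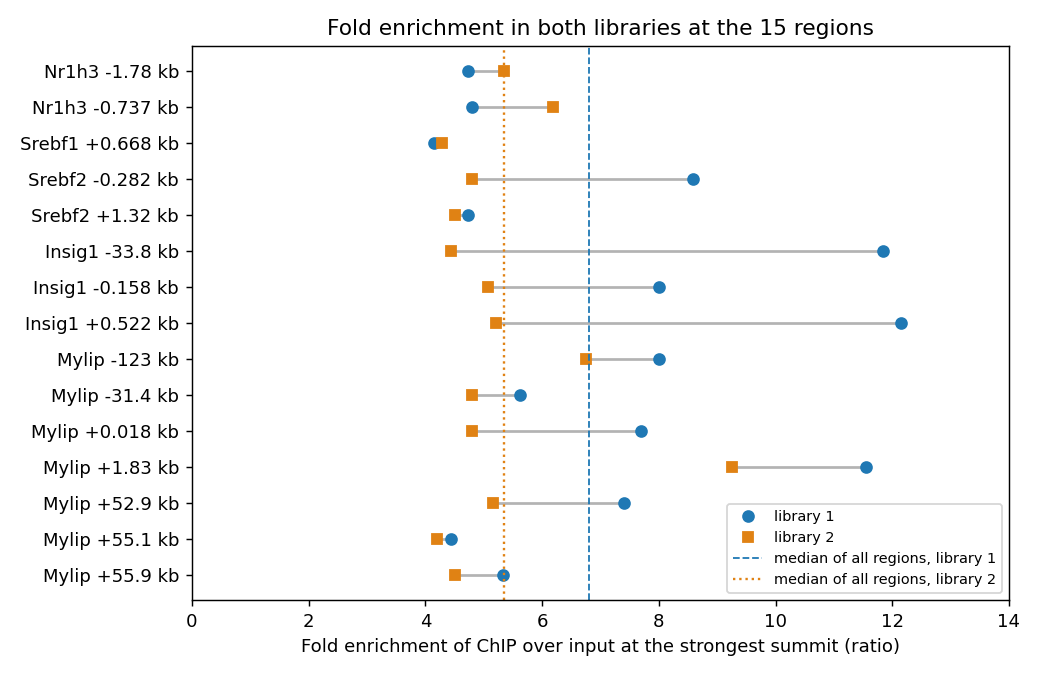
Fold enrichment of ChIP over input (ratio, horizontal axis) at the 15 regions, named by gene and distance from the TSS, in library 1 (circles) and library 2 (squares), 1 value per library. Dashed and dotted lines are the medians of all consensus regions, 6.81 in library 1 and 5.35 in library 2. The Mylip region at +1.83 kb stands far above both lines, and the Insig1 regions at -33.8 and +0.522 kb are high in library 1 only.

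The 15 regions were split between promoters and distal positions and were of middling strength. Their median fold was 7.41 in library 1 and 4.79 in library 2, against 6.81 and 5.35 for all consensus regions. The median of the lower percentile was 40.8, against 51.5 for all. Width was 562 bp at the median, against 626 bp for all. Regions centred within 1 kb of the TSS made up 6 of the 15 (40%), against 23.9% of all, and 6 (40%) lay beyond 3 kb, against 63.4%. The summits of both libraries lay within 100 bp of each other at 8 of 15 (53.3%), close to the 52.7% over all regions.

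**Figure D3:**
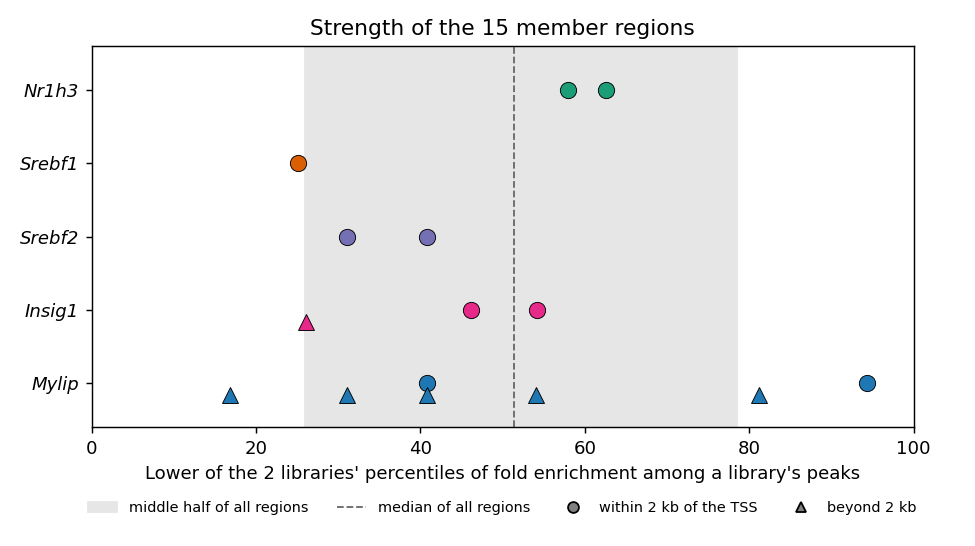
Strength of the 15 regions by gene. The horizontal axis is the lower of the percentiles that a region's fold enrichment had among the peaks of library 1 and of library 2, circles are regions within 2 kb of the TSS and triangles those beyond, coinciding symbols overlap, and the shaded band and dashed line are the middle 50% and the median of all regions. Mylip spans the range from 16.8 to 94.3, the Nr1h3 regions lie right of the median of 51.5 and the Srebf1 region lies at 25.1.

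Counted by gene, a region centred within 1 kb of an own TSS was found at 5 of 9 members, against 19.1% of all genes. The count of members with a region depends on the peaks admitted. With a fold of at least 5 required in both libraries, Insig1 and Mylip alone kept a region, against 22.7% of all genes. With a reciprocal overlap of 50%, Nr1h3, Insig1 and Mylip did, against 22.4%. Within 1 kb, 1 of 9 and 2 of 9 then had one, against 12.3% and 11.2% of all genes. At 4 of the 9, namely Nr1h3, Srebf2, Insig1 and Mylip, 2 regions lay within 2 kb of the TSS, against 7.07% of all genes. Of the 4595 genes with at least 1 region within 2 kb, 32.2% had 2 or more. The 2-kb count was made after the distances had been seen. The 2 regions were separated by 148 bp at Insig1, 318 bp at Nr1h3, 473 bp at Mylip and 1087 bp at Srebf2.

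A region requires peaks of both libraries, so genes with a region mostly have library 2 peaks by the rule itself. Library 1 had at least 1 peak nearest to each of the 9 genes (9 of 9, against 60.6% of all genes), and library 2 to 5 of 9 (against 34.9%). Of 49 library 1 peaks at the members, 16 (32.7%) lay in consensus regions, against 26.9% of all library 1 peaks. Of 18 library 2 peaks, 17 (94.4%) did, against 82.9%. With the exception of the Nr1h3 intron 4 peak, library 2 added no position that library 1 lacked. Whether Nr1h2, Scap, Insig2 and Cyp27a1 were unbound or bound below the reach of library 2 cannot be told apart in these lists.

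Sequence patterns were counted on both strands in the windows of 100 bp to each side of the summits. The AGGTCA half-site was present in 6 of 15 member windows, against 15.2% of all 20233. These were the windows of all 3 Insig1 regions and of the Mylip regions at -123, 1.83 and 52.9 kb. At Insig1 -33.8 kb and Mylip -123 kb, the window was centred on the library 1 summit, 396 and 737 bp from that of library 2. The windows of Nr1h3, Srebf1 and Srebf2 held no such match. A DR1 with at most 1 mismatch in its 12 fixed letters was present in 1 window, 43 bp left of the summit at 52.9 kb downstream of Mylip (AGGTGACAGGTCA on the minus strand), against 0.791% of all. A DR4 with the same allowance was present in 0 of 15 and in 0.237% of all.

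Patterns of the sterol and promoter factors were counted in the same windows. The SREBP core CACCCCAC was in 0 of 15 windows (1.35% of all). The E-box CACGTG was in 2 (4.26% of all), upstream of Nr1h3 at -1.78 kb and in the Insig1 promoter, where it shares its first 2 bases with the end of the half-site. The GC box GGGCGG was in 4 (10.6% of all) and CCAAT in 8 (26.7% of all). All 4 windows with a GC box lay within 2 kb of the TSS, where 24.8% of all windows had one. The Insig1 promoter window had 3 GC boxes, a GC content of 74.1% and 25 CpGs. Medians of GC content and CpGs were 49.8% and 6 over all regions within 2 kb of a TSS, and 45.3% and 2 over all regions. Patterns of the macrophage factors PU.1 (GAGGAAGT), CEBP (TTGCNNAA), AP-1 (TGANTCA) and RUNX (TGTGGTT) were in 0 of 15, against 6.82%, 15.3%, 10.1% and 8.07% of all. These zeros depended on the window, PU.1 excepted. With windows of 250 bp to each side, CEBP was in 3, AP-1 in 2 and RUNX in 1 (27.6%, 18.4% and 15.2% of all), and around the library 2 summits CEBP was in 2 and AP-1 in 1. A match is a description of letters and no proof of a site, and a window without one says nothing about the factor.

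The genes around these 9 were described with lists of pathway members. Among 20 LXR targets, 11 were nearest to a region, against 31.6% of all genes. The cholesterol exporter gene Abcg1 had 20 regions, Mertk, an efferocytosis receptor, had 19 and Lpl, lipoprotein lipase, had 13. The hepatic and intestinal transporter genes Abcb11, Abcg5 and Abcg8 had none. Among 12 LXR partners and coregulators, 10 had a region, among them Rxra with 4 and Ncoa2 with 3, while Gps2 and Rxrg had none. Of 6 IDOL substrates and E2 enzymes, 4 had one, among them Lrp8 and Ube2d3 with 2 regions each, and Ube2d1 and Vldlr were without.

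On the SREBP side, 12 of 23 SREBP2 targets had a region, with 18 regions in all, against 84 at the 20 LXR targets. The median was 1 region per gene in both lists, and the LXR total rested largely on Abcg1, Mertk, Lpl and Abca1, the last with 12. Mvd, mevalonate decarboxylase, had 4 and Hmgcs1, HMG-CoA synthase, had 2, while Acat2 and Ebp had none. Of 15 genes for SREBP processing and turnover, 8 had one, among them Fbxw7, the ubiquitin ligase subunit that marks nuclear SREBP for degradation, with 5, Ube2g2 with 3 and Erlin2 with 2. Mbtps2 and Paqr3 had none. Of 10 genes for oxysterol synthesis and removal, 4 had one. Ch25h, cholesterol 25-hydroxylase, had 7, all farther than 1 kb from its TSS, and Cyp7b1 and Fdxr had 1 each. Cyp11a1, Cyp39a1 and Cyp46a1 had none.

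**Figure D4:**
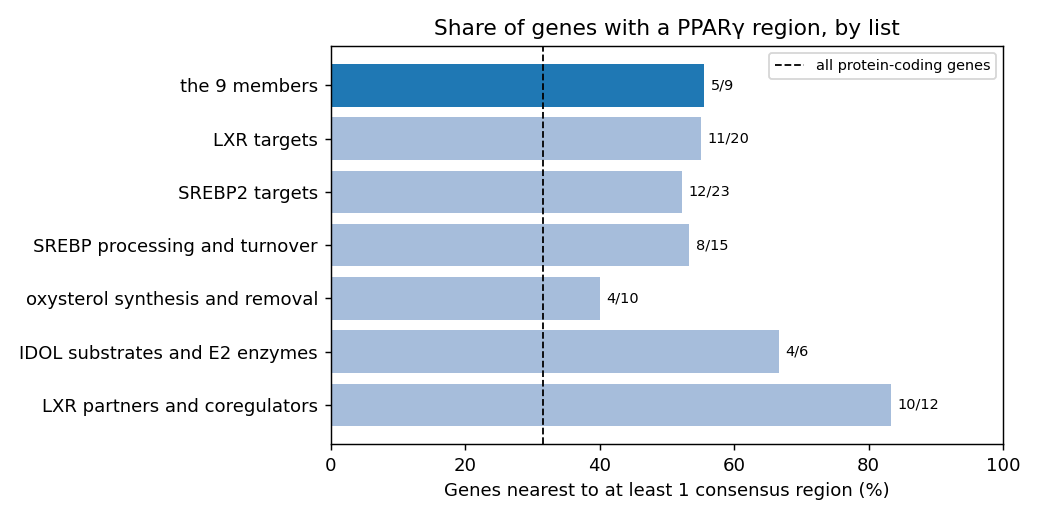
Share of genes nearest to at least 1 consensus region (%), for the 9 genes and for 6 pathway lists, with counts at the bar ends. The dashed line is the 31.6% of all protein-coding genes, and the bars run from 4 of 10 for oxysterol synthesis and removal to 10 of 12 for LXR partners and coregulators.

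Regions were also counted at marker genes of AMs and of other cells. A PPARγ region near a gene does not show which cells were present, so these counts are no test of the cell type. All 8 AM markers, such as Chil3 and Mrc1, had regions, where 31.6% of all protein-coding genes had one. Of markers of other cells, 3 of 6 for other macrophages and monocytes had one, 2 of 6 for lung epithelium, 2 of 4 for endothelium, 1 of 4 for lymphocytes and 1 of 4 for neutrophils. Among these, the endothelial genes Vwf and Pecam1 had 11 and 3 regions, the best of Vwf ranking 384, equal to the best of Mrc1. The club cell gene Scgb1a1 and the neutrophil gene S100a8 had 2 each, as did Epcam of the epithelial list and Ms4a1 of the lymphocyte list. Of the other macrophages and monocytes, Cx3cr1 had 3, Ccr2 had 2 and Ly6c2 had 1, with best ranks of 1632, 3676 and 9997. Sftpc, Cd3e, Ly6g and C1qa had no peak in either library. The part of other cells in the values above was not tested.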

How the data were processed

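As given in the methods of the study and in the processing notes of the submitters, the authors demultiplexed with bcl2fastq 2.20.0.422 (CASAVA is named too), trimmed with cutadapt, aligned to mm10 with Bowtie2, filtered with SAMtools for properly paired, unduplicated reads, and called peaks with MACS3 for each library against its input at q 0.05, without pooling replicates. The deposited values are the position and summit of each peak, its fold enrichment (a linear ratio), the −log10 of its p and q, and a score equal to the −log10 q multiplied by 10 and cut to a whole number. No counts are given, so depth cannot be read from these values, and a list called at lower depth misses weak peaks. The study refers to separate sequencing quality data, which were not used here.

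Peaks were merged, assigned and scanned with Python 3.11.15, pandas 2.3.3, numpy 2.4.6 and pysam 0.24.0, and the steps were tested on simulated data. TSSs were those of curated transcripts in the RefSeq annotation of mm10. A percentile is the standing of a fold among all peaks of its library, and regions were ranked by the lower of both. With 1 ChIP group there was no contrast, so no test was run, and each count is set beside that of all genes or regions. The text names the 9 genes, the 3 of each pathway list with the most regions, up to 3 alphabetically first without one, and neighbours to which a nearby region was assigned. The marker genes named were picked after their values had been seen, and some list genes that the rule names are not reported here. The genes and lists were chosen with earlier results of these data known. The counts of at least 2 regions within 2 kb, of at least 7 regions and of SREBP cores with 1 mismatch were added after values had been seen. Alternatives changed the peak threshold, the overlap, the libraries required, the transcripts, the point assigned, the assignment and the motif windows.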

Additional observations from a re-analysis of the deposited data

How the results depend on the processing

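The lists hold no counts, and the precision of each fold is unknown. The members with a region numbered 5, with 15 regions, and 5 members had one within 1 kb; at q 0.001 these counts were 5, 15 and 5. At a fold of at least 5 in both libraries, only Insig1 and Mylip kept a region, with 5 regions. These were 2 members, against 22.7% of all genes, and 1 of 9 had one within 1 kb, against 12.3%. With a reciprocal overlap of 50%, Nr1h3, Insig1 and Mylip remained (3 members, against 22.4%), with 6 regions. Within 1 kb, 2 of 9 had one, against 11.2%. With summits at most 100 bp apart, 9 regions were left and 3 members had one within 1 kb. Assignment by overlap with the gene span gave 7 regions. Assignment to every gene with a TSS within 50 kb gave 6 members, against 50.3% of all genes. Nr1h2 then had 1 region. Leaving out library 1 gave 5 members (34.9% of all genes), 18 regions and 5 members within 1 kb (21.2%). Leaving out library 2 gave 9 members (60.6%), 49 regions and 6 members within 1 kb (41.3%). Windows of 250 bp each side held the half-site in 10 regions (30.6% of all). DR1 matches numbered 0 without mismatches and 2 with 2 (4.74% of all). The SREBP core was in 1 region around the library 2 summits and in 1 with windows of 250 bp. With 1 mismatch, it was in 2 regions (17.4% of all). Alternatives were tallied over members, regions, members within 1 kb, half-sites, DR1 and DR4, those given above included. Of these values, 32 stayed within 1.5 times of the reported count and 14 did not. No paired analysis was possible because there is 1 ChIP group and no test between groups.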

Other observations

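In the RefSeq promoter windows of the 9 genes (mm10, 250 bases before to 50 after each annotated start), 3 tiers were seen. The windows of Srebf2, Insig1 and Mylip overlapped a consensus region. At Nr1h2, Nr1h3 and Srebf1 a window overlapped a peak of library 1 only, and at Scap, Insig2 and Cyp27a1 no window overlapped a peak of either library. Of the 9 genes, only Insig1 had the AGGTCA half-site in a promoter window (1 of 15 windows, against 16.3% of 32851 windows of all genes). Insig1 and Scap had the E-box CACGTG (3 of 15 windows, against 7.15%). The GC box GGGCGG was in a window of 7 of the 9 (10 of 15 windows, against 35.7%), including all 3 genes with no promoter peak. Windows of the same gene can overlap.

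Among the LXR targets, the best region of Abcg1 ranked 147 of 20233, at -35.5 kb with folds of 16.3 and 15.4, and that of Mertk ranked 716, at 12.4 kb with folds of 12.1 and 10.4. Both rank above the best region of the 9 genes, that of Mylip at 1235. The Abca1 gene, whose transcript miR-33 targets, had 12 regions, the best at 40.4 kb with folds of 14.1 and 10.1, and was named, here and above, after its values had been seen.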
